A study of Mus musculus with 2 samples.

Results

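The cells described here were chosen by a marker rule as pericytes of the embryonic mouse eye. Pericytes are the contractile support cells that sit on the outside of capillaries. The name is that of the rule and not settled for every cell. In the control 58.1% of the cells, and in the mutant 55.4%, met the rule with only 4 genes, and as a group these also carried mesenchyme transcripts. A cell was kept when it had at least 200 detected genes, at least 2000 unique molecular identifiers (UMIs, each marking 1 captured transcript) and at most 15% of its UMIs on mitochondrial genes. It was called a pericyte when at least 4 of the 6 mural genes Rgs5, Pdgfrb, Kcnj8, Abcc9, Cspg4 and Notch3, and at most 1 of the 4 endothelial genes Pecam1, Cdh5, Cldn5 and Esam, had a UMI. That rule found 154 cells among 20430 kept cells of 26897 barcodes, 62 in the control library and 92 in the mutant library.

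The libraries were single-cell RNA sequencing (scRNAseq) of eye cups at e15.5 (embryonic day), with cornea, lens and optic nerve removed. There was 1 library per genotype, each pooled from 3 eye cups. Control eye cups were Myrf fl/fl, with intact alleles of the transcription factor gene Myrf flanked by loxP sites. Mutant eye cups were Rx>cre Myrf fl/fl, so that both genotypes carried the floxed alleles and only the mutant the Cre transgene. Rx>cre acts in the early eye field, from which retina and retinal pigment epithelium (RPE) arise, so ocular pericytes are not a lineage in which it is known to act. With 1 library per genotype there is no replicate error and no test: every interval below is a 95% interval for counting error alone, and a difference between genotypes is a difference between these libraries.

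Pericytes and vascular smooth muscle cells together are called mural cells. Endothelial cells secrete PDGF-B, which recruits pericytes through the receptor PDGFRB. Notch ligands on endothelium act on NOTCH3 in mural cells, and pericytes in turn help endothelium to lay down the basement membrane that both share. Pericytes of the head, the eye included, arise largely from neural crest, which also gives the periocular mesenchyme, the loose connective tissue around the eye cup.

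Pericytes were deeper than the average cell. Their median was 18141 UMIs in the control library, with a range of 3033 to 47009, and 19137 in the mutant library, with a range of 2654 to 52497. The median over all kept cells was 11726 and 10521 UMIs. The rule favours deep cells, since it asks for UMIs of at least 4 genes. Among cells with at most 1 endothelial gene the median rose from 10363 and 9516 UMIs with 0 mural genes to 18000 and 17596 with 3. Summed over its members, the control class held 1226657 UMIs and the mutant class 1941067, and all levels below are these sums scaled to CPM (UMIs of a gene per 1000000 UMIs of the class). The libraries shared 69 barcodes, none of them of a pericyte. Y-linked genes gave a UMI in 0 of the 62 control pericytes (upper 95% limit 5.78%) and in 56 of the 92 mutant pericytes (60.9%, 50.1 to 70.9%), so sex cannot be told apart from genotype across all cells, and values over the 61 control and 32 mutant pericytes that had Xist but lacked Y-linked UMIs (Xist-only cells) are given for genes the text turns on.

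The 6 genes that chose the cells are described first, with no claim drawn from them. Pdgfrb, the PDGF-B receptor, was detected in 60 of 62 control and 89 of 92 mutant pericytes, at 262 and 248 CPM. Notch3 was detected in 50 and 80 cells, at 84.8 and 90.7 CPM. Cspg4, which encodes the NG2 proteoglycan, was detected in 40 and 60 cells, at 70.9 and 65.4 CPM. The rule itself asks for such detection, so these counts describe the choice of cells.

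Kcnj8 and Abcc9 encode the pore (Kir6.1) and the regulatory subunit (SUR2) of the vascular ATP-sensitive potassium channel, which sets the membrane potential of mural cells. The genes are neighbours on the minus strand of chromosome 6 in GRCm38, Kcnj8 at chr6:142564837-142571614 and Abcc9 at chr6:142587862-142702315, with 16247 bases between them. Kcnj8 was at 172 CPM (control) and 158 CPM (mutant), and Abcc9 at 178 and 168 CPM. Both genes had a UMI in 39 of the 62 control and 60 of the 92 mutant pericytes, and neither had one in 6 and 2 cells. The alternative subunits, Kcnj11 and Abcc8, had 0 UMIs in control pericytes, and 0 and 2 UMIs in mutant ones. Detection of the channel pair in many members follows from the rule.

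Rgs5, a regulator of G-protein signalling and the gene most often used to mark pericytes, was uneven. A UMI was found in 38 of 62 control pericytes (61.3%) and in 55 of 92 mutant ones (59.8%). At most 0.494% of retinal ganglion cell-like and 0.488% of erythroid-like cells had one, classes whose median depth was 16227 to 20081 UMIs. Mesenchyme-like cells, a class defined below, had one in 5.3% (control) and 5.5% (mutant). Cells with 3 mural genes had one in 84 of 227 and 63 of 178. Rgs5 is in the rule and the comparison classes carry a limit on mural genes, so the contrast is partly built in. The median pericyte had 1 Rgs5 UMI in each library, and the highest had 105 and 140. Only 20 control and 36 mutant pericytes had 3 or more. The 5 richest cells held 65.4% of the control UMIs and 45.0% of the mutant ones, so the levels of 398 and 460 CPM describe a minority of strongly positive cells.

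How far the members earned the name was checked on genes outside the rule, by the number of mural genes seen in a cell. Of the control pericytes 36 had 4 of the 6 genes, 17 had 5 and 9 had all 6. Of the mutant pericytes 51 had 4, 16 had 5 and 25 had 6. A further 227 control and 178 mutant cells just missed the rule with 3 genes, and 2 cells in each library had 4 or more but were left out for endothelial genes. Depth differed little over this series: the median was 18000, 17900, 20782 and 18142 UMIs for 3, 4, 5 and 6 genes in the control, and 17596, 19363, 17692 and 19896 in the mutant.

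Several genes known from pericytes were higher the more rule genes a cell had, in both libraries, though not every enriched gene followed that order. Foxs1, a forkhead factor of developing pericytes, was at 6.20, 16.8, 67.8 and 133 CPM in control cells with 3, 4, 5 and 6 mural genes, and at 7.85, 15.51, 30.5 and 103 CPM in mutant ones. Mcam, which encodes the adhesion molecule CD146, went from 19.0 and 43.4 to 130 and 449 CPM in the control, and from 11.9 and 21.3 to 82.4 and 251 CPM in the mutant. Igfbp7, a secreted IGF-binding protein, went from 77.2 to 1284 CPM and from 98.0 to 1165 CPM between cells with 3 and with 6 genes. The order was the same for the matrix Gla protein gene Mgp, with control levels of 337, 649, 1769 and 3568 CPM and mutant levels of 454, 623, 1685 and 3587 CPM. For Higd1b, a gene of pericyte mitochondria, the 6-gene cells held 7 of the 9 control and 42 of the 44 mutant UMIs, and all other kept cells outside the class held 1 and 2.

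The 4-gene cells, more than 50% of the class, went partly against the label. Col1a1, the main collagen gene of connective tissue, was at 2246 CPM in control and 2656 CPM in mutant 4-gene cells, against 3234 and 3516 CPM in the 3-gene cells outside the rule and 228 and 1490 CPM in the 6-gene cells. Lum, a small proteoglycan gene of the same tissue, was at 684 and 638 CPM with 4 genes and at 139 and 572 CPM with 6. Pdgfra, the PDGF receptor of mesenchyme, was at 111 and 101 CPM with 4 genes, and at 0 and 20.6 CPM with 6. In the control the 8 mesenchyme markers summed to lower levels with each further mural gene, at 9670, 6763, 4047 and 1284 CPM for 3 to 6 genes. In the mutant there was no such order, at 9888, 7393, 10109 and 5832 CPM.

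**Figure D1:**
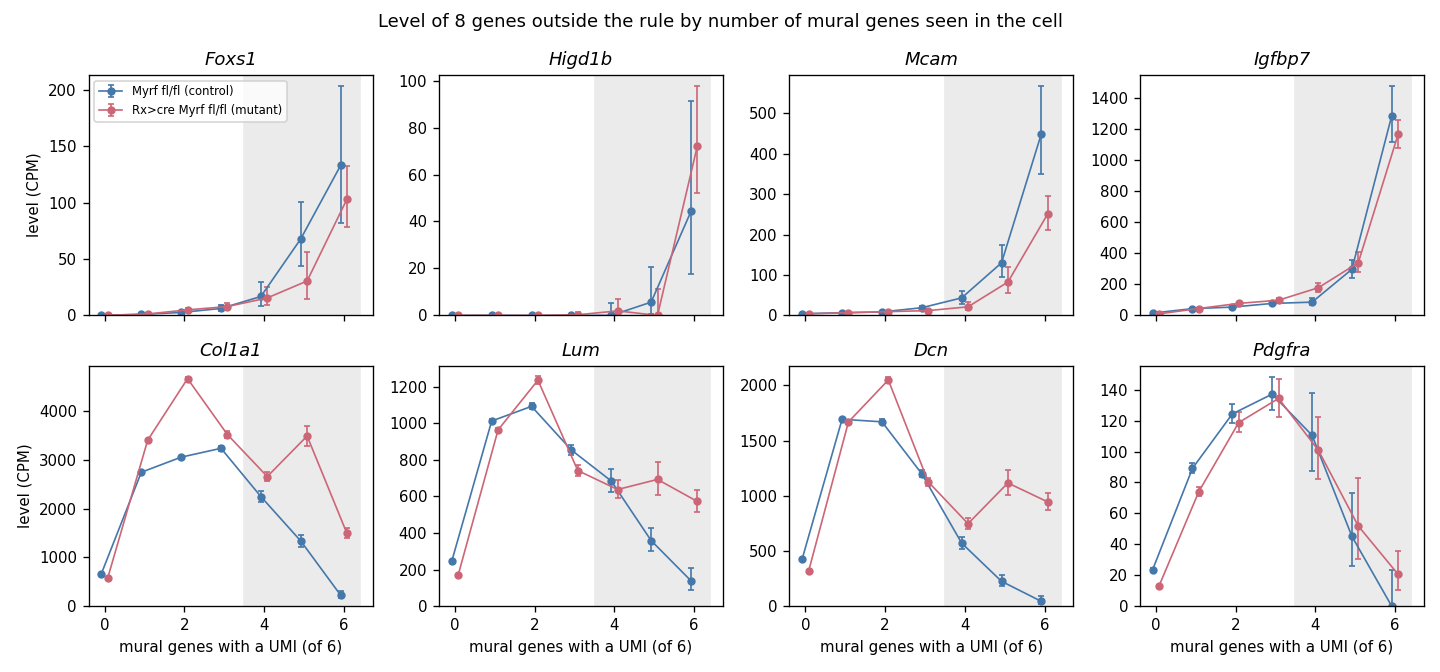
Level in CPM (vertical axis) of 8 genes outside the rule against the number of mural genes with a UMI in the cell (horizontal axis, grey for pericytes), for the control and mutant libraries, with bars for the 95% Poisson interval of the summed UMIs. Foxs1, Higd1b, Mcam and Igfbp7 are highest in cells with 6 mural genes, while Pdgfra is at 111 CPM in control cells with 4 genes and at 0 with 6.

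Some genes peaked short of the last step. Tbx18, a T-box factor of mural and mesenchymal lineages, was at 39.8, 64.4, 96.1 and 88.6 CPM for 3 to 6 genes in the control, and at 39.5, 70.8, 97.7 and 56.7 CPM in the mutant. Aldh1a2, which makes retinoic acid, was likewise highest with 5 genes, at 294 and 266 CPM, against 177 and 146 CPM with 6. Both were thus present across the whole class and not concentrated in the cells with the most mural genes.

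Among 7224 genes with at least 20 pericyte UMIs in each library, 84 (1.16%) were at least 4-fold higher in pericytes than in all other kept cells in both libraries. Since the same cells were chosen on mural genes, these are a description of the class and carry no test. Of the 84 genes, 52 were also at least 4-fold above endothelial-like cells (3 or more of the 4 endothelial genes, at most 1 mural gene) in both libraries. Against mesenchyme-like cells (4 or more of 8 mesenchyme genes, at most 2 mural genes) the number was 37. Another 16 of the 84, among them Mcam, Epas1 and Col4a1, were higher in endothelial-like cells than in pericytes, so these genes were shared within the vessel wall.

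Among genes outside the rule with at least 20 pericyte UMIs in each library, the most enriched in both was Foxs1, at 46.5 CPM in control and 44.3 CPM in mutant pericytes, 54.4-fold and 41.7-fold above the other cells. It had a UMI in 21 of 62 and 38 of 92 pericytes and in no erythroid-like cell and no cell of the ganglion cell-like class. Mrvi1, a target of the cyclic GMP-dependent kinase, was 51.0-fold and 29.7-fold higher, from 26 and 32 UMIs. Itga1, the alpha subunit of a collagen IV receptor, came next at 159 and 170 CPM, 26.2-fold and 36.4-fold. Mgp was at 1348 and 1691 CPM, at least 16.8-fold above the rest in each library, and Aldh1a2 at 183 CPM in each library, 12.1-fold and 14.3-fold. Foxs1 and Mrvi1 thus rested on fewer counts than Itga1, Mgp and Aldh1a2.

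Among the named enriched genes, Gucy1a1 and Gucy1b1 encode the paired subunits of the nitric oxide receptor guanylate cyclase. Gucy1a1 was at 196 and 204 CPM, 16.1-fold and 19.9-fold above other cells, and at no more than 0.908 CPM in endothelial-like cells. Gucy1b1 was at 127 and 103 CPM, 11.6-fold and 9.68-fold. Both subunits were thus enriched in each library.

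Further enriched genes act in signalling and transcription. Heyl, a Notch target, was at 86.4 CPM in control and 88.1 CPM in mutant pericytes, 11.0-fold and 9.03-fold above the other cells. Rasgrp2, an activator of the GTPase RAP1, was 12.9-fold and 13.9-fold higher, and it was nearly as high in endothelial-like cells, at 86.2 and 69.8 CPM against 93.8 and 106 CPM. Epas1, which encodes the hypoxia-inducible factor HIF-2alpha, was at 44.0 and 65.9 CPM in pericytes and at 138 and 170 CPM in endothelial-like cells. Carmn, a smooth muscle long noncoding RNA, was 10.9-fold and 18.2-fold higher. The remaining named genes, Rem1, Rasl12, Alpl, Lgi1, Fhl2, Lrrc32 and Actg2, lay between 8.58-fold and 21.7-fold, and for Actg2 the 5 richest cells held 85.7% and 70.2% of the UMIs.

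**Figure D2:**
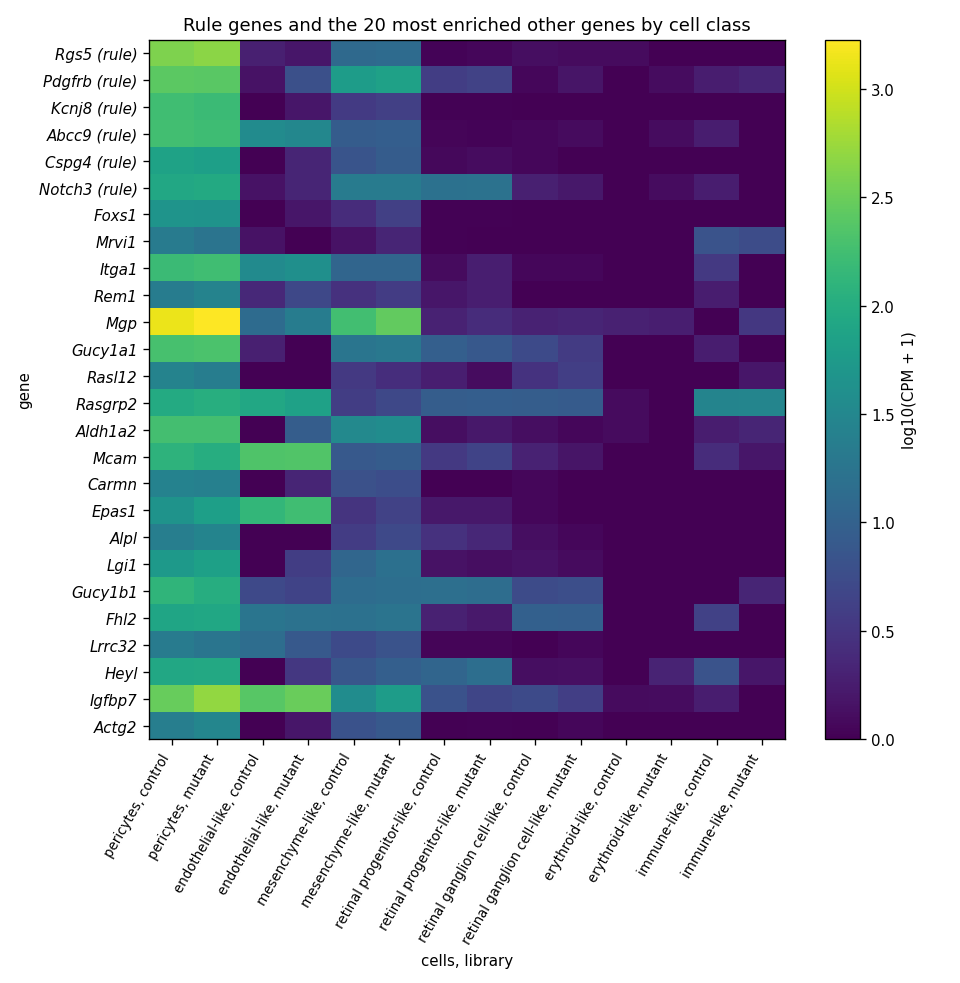
Heat map of log10(CPM + 1) for the 6 rule genes and the 20 most enriched other genes (rows) in 7 cell classes of each library (columns). The pericyte columns are bright over all rows, and endothelial-like cells share Mcam, Epas1 and Igfbp7 with them; levels of the rule genes in the other classes are held down by the rules that define those classes.

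The first comparison between genotypes was of abundance. Pericytes were 0.638% of kept cells in the control library (0.489 to 0.817%) and 0.859% in the mutant library (0.693 to 1.05%), a ratio of 1.35 (0.966 to 1.89) whose interval includes equality. Relative to endothelial-like cells, of which there were 118 and 101, there were 52.5 and 91.1 pericytes per 100, a ratio of 1.73 (1.12 to 2.69). That interval included 1 for pericytes with none of the 4 endothelial genes (0.993 to 2.52), at a mitochondrial share up to 5% (0.945 to 3.33), without cells over 20000 UMIs (0.908 to 2.89), in the Xist-only cells (0.994 to 3.56), after thinning to 2000 UMIs (0.747 to 6.35) and with 3 or more mural genes (0.789 to 1.51). Relative to mesenchyme-like cells, 2868 and 2024 in number, there were 2.16 and 4.55 per 100, a ratio of 2.10 (1.499 to 2.965). Relative to retinal progenitor-like cells the ratio was 1.05 (0.746 to 1.47), and relative to immune-like cells 1.14 (0.735 to 1.77).

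The size of the difference therefore followed the cells it was measured against. Mesenchyme-like cells were 29.5% of kept control cells and 18.9% of kept mutant cells, and retinal progenitor-like cells 31.6% and 40.7%. How much tissue from around the eye cup each pool held cannot be told apart from genotype here.

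The difference also followed the rule. With 3 or more mural genes instead of 4, there were 289 control and 270 mutant cells, and the ratio of shares was 0.848 (0.716 to 1.01), in the other direction. The ratio per endothelial-like cell was then 1.09 (0.789 to 1.51). Cells with all 6 genes, 9 and 25 in number, gave a ratio of shares of 2.52 (1.14 to 6.14). Cells with 5 genes gave 0.855 (0.404 to 1.80) and cells with 4 gave 1.29 (0.823 to 2.03). Of the 30 more pericytes in the mutant library, 16 had all 6 mural genes and 15 had 4, while cells with 5 were 1 fewer. With 3 or more genes the mutant library had no more such cells than the control.

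**Figure D3:**
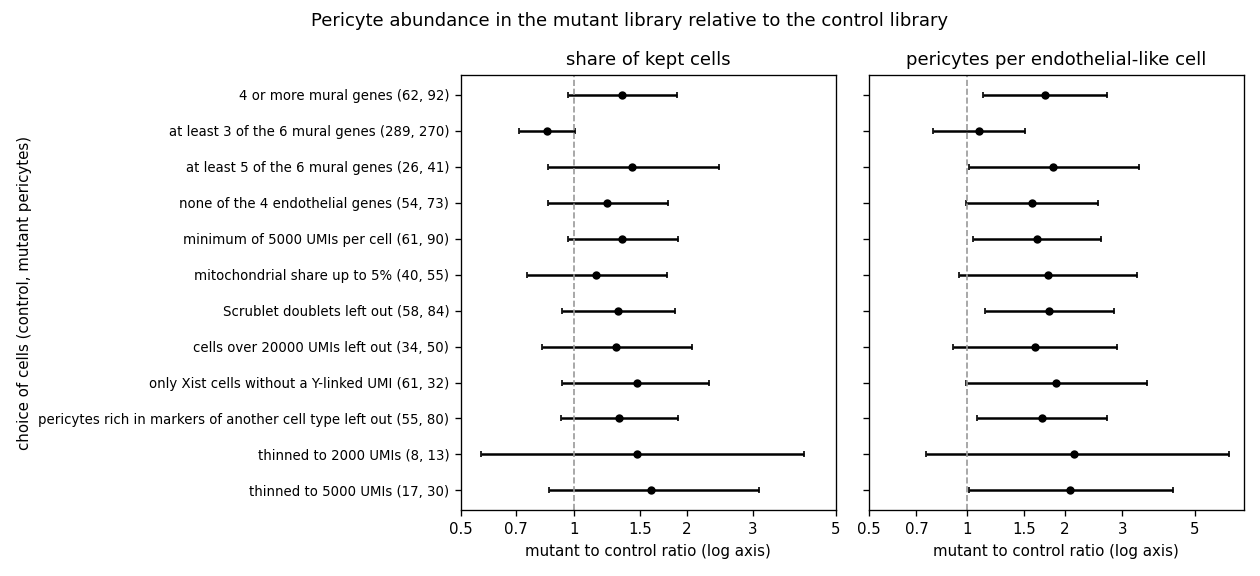
Mutant to control ratio (log axis) of the pericyte share of kept cells (left) and of pericytes per endothelial-like cell (right) under 12 choices of cells, with 95% counting intervals and the number of control and mutant pericytes beside each choice. The ratio of shares lies between 1.15 and 1.61 except at 3 or more mural genes, where it is 0.848.

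The deleted gene gave no handle on the pericytes. Myrf had 4 UMIs in control pericytes (3.26 CPM) and 5 in mutant ones (2.58 CPM), a ratio of 0.790 (0.170 to 3.98), so a change was not detectable at this depth. Over all other kept cells Myrf had 428 and 149 UMIs, or 3.42 and 1.16 CPM. The reads count the 3′ end of transcripts, and whether that end lies in the floxed part is not given in the sources used here. Rax, the eye-field gene whose regulatory sequence drives the Cre, had 13 and 51 UMIs in pericytes (10.6 and 26.3 CPM), of which the 5 richest cells held 92.3% and 72.5%. That is far below the 510 and 507 CPM of retinal progenitor-like cells, and mesenchyme-like cells were at 14.8 and 19.9 CPM.

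Before gene levels are compared, a few pericytes need setting apart. At least 20 UMIs of retinal ganglion cell, retinal progenitor or pigment cell markers, or 100 of erythroid markers, were seen in 7 control and 12 mutant pericytes. A single control cell held 282 of the 313 pigment marker UMIs (90.1%), and another held 4874 of the 5142 erythroid ones (94.8%). In the mutant 1 cell held 401 of the 761 ganglion cell marker UMIs (52.7%), and 1 held 3403 of the 3874 erythroid ones (87.8%). The erythroid genes Slc4a1 and Hemgn were at 0 in pericytes of both libraries, and most of the erythroid marker UMIs were of globin genes. Scrublet, a doublet caller, marked 4 control and 8 mutant pericytes, and 3.41% and 3.27% of all kept cells, where a common rule for droplet capture, which scales with the number of barcodes, gives 10.4% and 11.1%, so most of the doublets expected by that rule were not called.

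The summed marker levels also differed between the libraries. Ganglion cell markers, of which 5 of 6 were seen in control and all 6 in mutant pericytes, summed to 65.2 CPM (control) and 392 CPM (mutant). Retinal progenitor markers summed to 269 and 531 CPM, pigment cell markers to 255 and 17.5 CPM, and erythroid markers to 4192 and 1996 CPM. The 8 mesenchyme markers summed to 5274 and 7384 CPM. Endothelial markers were at 215 and 255 CPM, of which Emcn alone gave 164 and 194 CPM, while Schwann cell markers were at 110 and 91.7 CPM, muscle markers at 16.3 and 21.6 CPM and immune markers at 4.89 and 1.55 CPM. The part of these other transcripts in the differences below was not tested beyond the values given without the 19 cells.

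Most of the pericyte transcriptome was at a similar level in both libraries. Of 7356 genes with at least 50 pericyte UMIs over both libraries, 98 (1.33%) were at least 2-fold higher in the mutant and 48 (0.653%) at least 2-fold lower. The median log2 ratio was -0.04. For 55 of the 98 higher genes the 5 richest mutant cells held 50% or more of the mutant UMIs, as for the ganglion cell genes Stmn2 (29 control and 254 mutant UMIs) and Isl1 (0 and 90). The same held for 17 of the 48 lower genes in the control, as for the pigment gene Dct (150 and 0). All 98 and 48 had counting intervals that left out 1. At 50 or more UMIs a 2-fold ratio gives such an interval by itself, so this adds no support. Without the cells rich in other markers, 43 of the 98 and 30 of the 48 genes still had 50 UMIs, and 33 and 21 of these were past 2-fold in the same direction. Among the Xist-only cells 19 and 27 still had 50 UMIs, of which 13 and 18 were past 2-fold. With 3 or more mural genes all had, and 31 and 9 were past 2-fold. In endothelial-like cells 31 of the 98 genes and 5 of the 48 were past 2-fold the same way, and in mesenchyme-like cells 4 and 2. The share of all genes past 2-fold in those classes is not given here. Neither is the share of all genes with 50% or more of their UMIs in 5 cells. Endothelial-like cells numbered only 118 and 101, so the counts of shared genes are a description and show no overlap beyond such a share. Only 4 of the 98 genes, the Y-linked Eif2s3y and Ddx3y with A2m and Rps27rt, and 1 of the 48, the Xist antisense gene Tsix, were past 2-fold the same way in both mesenchyme-like and endothelial-like cells.

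The genes named next were those furthest from 1 by the near bound of their counting interval, with the 5 richest cells under 50% of the UMIs in each library, and Xist and Y-linked genes left out. Olfm1, a secreted olfactomedin found in neurons and mesenchyme, was at 22.8 CPM (control) and 84.0 CPM (mutant), a ratio of 3.68 (2.45 to 5.71). The ratio was 2.82 without the cells rich in other markers, 2.76 in the Xist-only cells and 1.62 with 3 or more mural genes. It was at 1.22 in mesenchyme-like cells. Jup, the junction protein plakoglobin, went from 13 to 65 UMIs, a ratio of 3.16 (1.73 to 6.25), with 1.81 in the Xist-only cells and 1.25 with 3 or more mural genes. The C-type lectin gene Clec2d was at 21.2 and 51.0 CPM, 2.41-fold (1.55 to 3.86), with 2.41 without the cells rich in other markers, 2.64 in Xist-only cells and 1.81 in mesenchyme-like cells. Without pericytes over 20000 UMIs Clec2d had a log2 ratio of 0.81, under 2-fold. Each of the 3 genes was thus under 2-fold for at least 1 choice of pericytes.

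Rps27rt, a retrotransposed copy of a ribosomal protein gene whose reads may be shared with its parent, was 2.62-fold higher (1.90 to 3.69), and it was also 2.15-fold higher in endothelial-like, 2.14-fold in mesenchyme-like and 2.21-fold in retinal progenitor-like cells. The difference was thus common to all 4 classes. Sfrp2, a secreted WNT inhibitor that was also 1 of the retinal progenitor markers, was at 139 and 276 CPM, a ratio of 1.99, and 1.29 with 3 or more mural genes. The neuronal genes Tubb2b, Uchl1 and Tuba1a were 1.96-fold, 1.95-fold and 1.60-fold higher, beside the higher mutant level of ganglion cell markers given above. In endothelial-like cells they were 1.73-fold, 1.66-fold and 1.56-fold higher. In mesenchyme-like cells they were at 0.868, 0.949 and 1.06, and in retinal progenitor-like cells at 1.01, 1.03 and 1.06. In the Xist-only pericytes Tubb2b was at 1.02, Uchl1 at 1.73 and Tuba1a at 1.08.

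Of the lower genes, Hmga2, a chromatin protein of embryonic growth, was at 148 CPM (control) and 66.5 CPM (mutant), a ratio of 0.448 (0.355 to 0.564). Its ratio was 0.614 in mesenchyme-like cells and 0.448 in the Xist-only pericytes, but 2.04 in cells with all 6 mural genes, from 6 and 45 Hmga2 UMIs. Gstp1, a glutathione transferase, was at 174 and 72.6 CPM, 0.416 (0.334 to 0.517), with 0.573 once the cells rich in other markers were left out, and with 0.555, 0.628 and 0.642 in endothelial-like, mesenchyme-like and retinal progenitor-like cells. These were therefore lower in the mutant library beyond the pericytes. Robo1, a SLIT receptor, was at 57.1 and 26.3 CPM, 0.460 (0.315 to 0.670), 0.398 in the Xist-only cells and 0.673 with 3 or more mural genes, while it was at 1.02 in mesenchyme-like and 1.01 in endothelial-like cells. The other named lower genes, Rpia, Rpgrip1, Sufu, Tmem209 and Coil, had ratios of 0.375 to 0.406 on 32 to 51 control UMIs, and Rpgrip1 was at 0.329 in endothelial-like cells as well. With 3 or more mural genes none of the 5 was past 2-fold, with Rpia at 0.844, Tmem209 at 0.802 and the others between 0.558 and 0.595.

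Lists of genes of mural biology were compared by their medians, which cannot be set against single genes picked for their ratio. Over 14 lists no median reached 1.5-fold, and the medians ran from -0.30 for 7 p53 target genes to 0.36 for 10 contractile genes, against -0.04 over all genes. Of all 7356 genes 44.6% were above equality and 55.4% below. The rest follow by role, and counts are of genes with at least 50 UMIs.

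**Figure D4:**
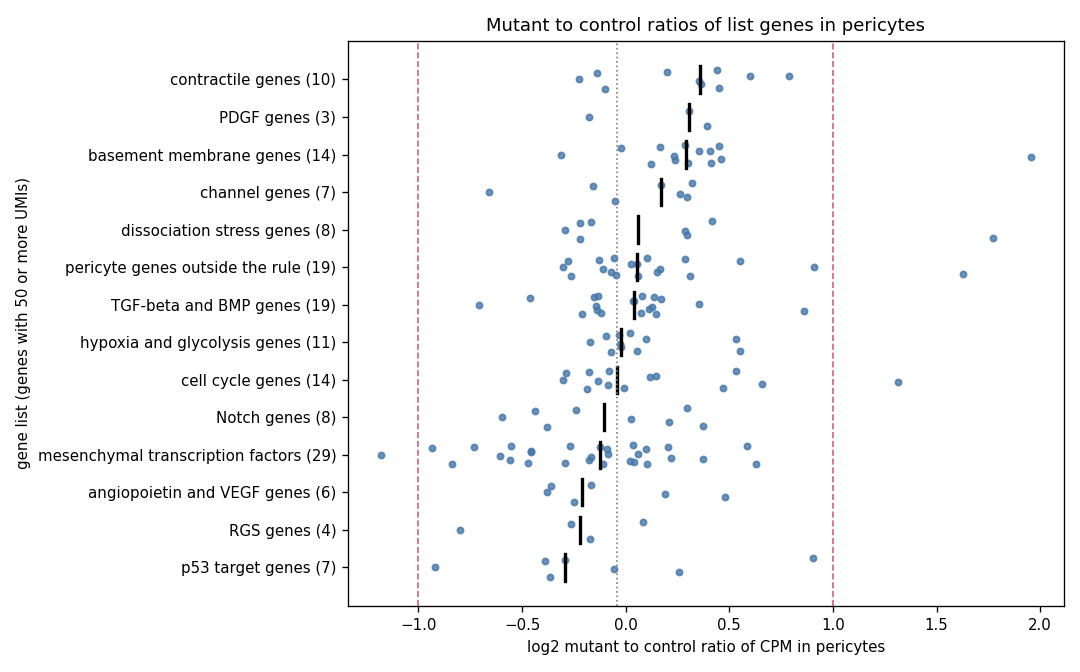
Log2 mutant to control ratio of CPM in pericytes for the genes of 14 lists with 50 or more UMIs (blue points), with each list's median (black bar), the median of all 7356 genes (dotted line, -0.04) and the 2-fold limits (dashed lines). Only a few genes lie outside the limits, among them Col18a1, Junb, Higd1b, Ccnb1 and Tbx15.

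Among the 19 further pericyte genes, 11 were above and 8 below equality, with a median log2 ratio of 0.06, and 1 was past 2-fold higher, against 1.33% of all genes. That gene was Higd1b, at 9 and 44 UMIs, 3.09-fold (1.49 to 7.20). It was seen in 3 control and 10 mutant cells, and in the Xist-only cells it had 9 and 3 UMIs, a ratio of 0.715 with an interval of 0.124 to 2.86 that includes 1. Ndufa4l2, a mitochondrial subunit of hypoxic and mural cells, was at 160 and 234 CPM, 1.46-fold (1.24 to 1.74), and 2.27-fold with 3 or more mural genes. P2ry14, a receptor for UDP-sugars, had 29 and 86 UMIs, 1.87-fold (1.22 to 2.96). The endothelin receptor gene Ednra, at 85.6 and 82.9 CPM, Cd248, at 139 and 134 CPM, and Pde5a, at 66.8 and 74.2 CPM, differed by less than their counting error. Atp13a5, a pericyte marker of the adult brain, had 0 UMIs in both.

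The 10 contractile genes had a median log2 ratio of 0.36, with 7 above and 3 below equality and none past 2-fold. Acta2, which encodes smooth muscle actin, was at 395 CPM (control) and 682 CPM (mutant), 1.73-fold (1.55 to 1.92). It was detected in 19 of 62 control pericytes (30.7%) and in 42 of 92 mutant ones (45.7%), against 0.488% and 0% of erythroid-like cells. The median pericyte had 0 Acta2 UMIs in each library and the highest had 115 and 257. Tagln and Myl9, an actin-binding protein and a myosin light chain of smooth muscle, were 1.36-fold (1.20 to 1.53) and 1.37-fold (1.21 to 1.54) higher, while Tpm1, a tropomyosin expressed in most cells, was at 0.854 (0.801 to 0.911).

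The contractile pattern differed with the choice of cells. In the 4-gene cells Acta2 was lower in the mutant, at 0.693 (0.570 to 0.842), and Tagln at 0.757. In cells with 5 or more mural genes Acta2 was at 2.29 and Tagln at 1.80, beside a median log2 ratio of 1.08 for the 7 mesenchyme markers with 50 UMIs there, whose part in the result was not tested. In cells with all 6 genes they were at 1.37 and 1.48. In the Xist-only cells Acta2 was at 1.37 and Tagln at 0.958 (0.796 to 1.15). The median of the contractile list was then -0.01 on the log2 scale, and with 3 or more mural genes it was -0.0022. In mutant cells with a Y-linked UMI, 17 of 56 had all 6 mural genes, and Acta2 was at 630 CPM. In mutant Xist-only cells 7 of 32 did, and Acta2 was at 543 CPM. Both levels were under that of all mutant pericytes, so the few with neither Xist nor a Y-linked UMI were higher.

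Genes of differentiated smooth muscle were rare. Myh11, the smooth muscle myosin heavy chain, had 11 control and 37 mutant UMIs, 2.13-fold (1.06 to 4.62), in 3 and 8 cells. All 37 mutant UMIs lay in cells with 5 or more mural genes, and the Xist-only cells held 11 and 2 UMIs. Mutant pericytes with a Y-linked UMI held 8, so most of the 37 lay in the few with neither Xist nor a Y-linked UMI. Cnn1, calponin, had 17 and 10 UMIs, Myocd, the master regulator of the smooth muscle programme, 4 and 2, and Pln 0 in both. At these counts no more than their presence or absence can be read.

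**Figure D5:**
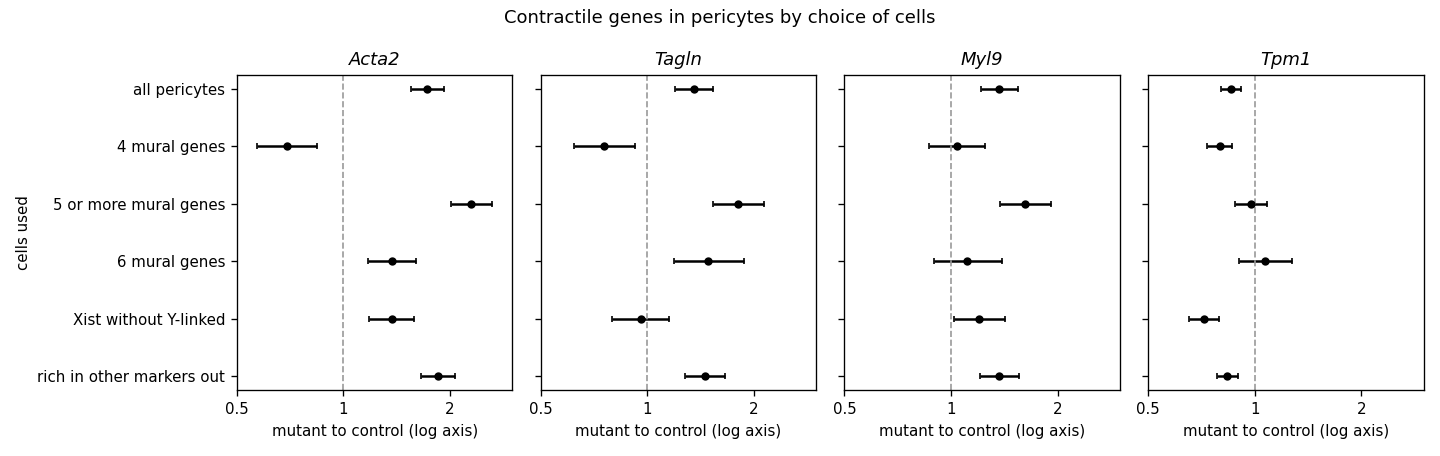
Mutant to control ratio (log axis) of Acta2, Tagln, Myl9 and Tpm1 in pericytes for 6 choices of cells, with 95% counting intervals. Acta2 is at 1.73 over all pericytes, below 1 in cells with 4 mural genes and above 2 in those with 5 or more.

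Of the basement membrane genes 12 of 14 were above equality, against 44.6% of all genes, with a median log2 ratio of 0.29 that was 0.05 in cells with 5 or more mural genes. The chains of collagen IV, the core network of that layer, were at 604 and 676 CPM for Col4a1, 1.12-fold (1.02 to 1.23), and at 311 and 367 CPM for Col4a2, 1.18-fold (1.04 to 1.34). Nid1, which links collagen IV to laminin, was at 211 and 288 CPM, 1.36-fold (1.18 to 1.59), and Sparc, a collagen-binding matricellular protein, at 1358 and 1656 CPM, 1.22-fold (1.15 to 1.29). The laminin chain genes Lama4 and Lamc1 were at 0.804 and 0.985, with intervals that include 1. Col18a1 had 7 and 43 UMIs, 3.88-fold (1.73 to 10.2), 2.45-fold in Xist-only cells and 1.19-fold with 3 or more mural genes. Col15a1, at 0 and 2 UMIs in pericytes, was at 395 and 414 CPM in endothelial-like cells.

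The PDGF ligand gene of the vessel wall was nearly unseen in pericytes. Pdgfb had 2 UMIs in pericytes of each library and was at 128 and 129 CPM in endothelial-like cells. Pdgfrb was part of the rule. The 3 PDGF genes with enough counts had a median log2 ratio of 0.31, with Pdgfa at 1.31 (0.881 to 1.99, and 0.451 in Xist-only cells on 38 and 8 UMIs), Pdgfra at 0.885 (0.675 to 1.16) and neither interval excluding 1.

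Notch genes were balanced, with 4 of 8 above equality and a median log2 ratio of -0.11. The target Heyl was at 1.02 (0.795 to 1.31), and the ligand Jag1, at 47.3 and 54.6 CPM, at 1.16 (0.831 to 1.62). Hes1, a target used by many cell types, was at 145 and 188 CPM, 1.30-fold (1.08 to 1.56). The receptor gene Notch1 was lower, at 70.9 and 46.9 CPM, 0.661 (0.487 to 0.897), but at 1.00 with 3 or more mural genes. The ligand genes Dll4, with 3 and 6 UMIs, and Jag2, with 1 and 2, were nearly unseen, and Mfng, which modifies Notch receptors, had 0 and 6 UMIs in pericytes against 118 and 106 CPM in endothelial-like cells.

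TGF-beta and BMP genes had a median log2 ratio of 0.04, with 11 of 19 above equality. Id3, a BMP target, was the highest at 832 and 875 CPM, 1.05-fold (0.973 to 1.14). Eng, the co-receptor endoglin, had 32 and 92 UMIs, 1.82-fold (1.20 to 2.81), and endothelial-like cells were at 318 and 323 CPM. Smad5, a BMP signal transducer, was at 0.727 (0.533 to 0.993). Bmp4, a BMP ligand, was at 0.612 (0.358 to 1.04), the lowest ratio of the list.

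Of 6 angiopoietin and VEGF genes 2 were above equality, with a median log2 ratio of -0.21. Angpt1, by which pericytes stabilise endothelium through the receptor TIE2, was at 47.3 and 65.9 CPM, 1.40-fold, with 1.17-fold without the cells rich in other markers and 1.96-fold in Xist-only cells. Angpt2 had 22 and 31 UMIs. The receptor genes of the endothelial side were low in pericytes: Kdr had 14 and 34 UMIs, Flt1 4 and 9, Tek, which encodes TIE2, 11 and 17, and Tie1 0 and 3. In endothelial-like cells Kdr was at 518 and 479 CPM and Flt1 at 393 and 389 CPM. The co-receptor genes Nrp1, at 134 and 154 CPM, and Nrp2, at 151 and 127 CPM, were by contrast enriched in pericytes by 3.20-fold to 4.86-fold.

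Of the other channel genes, 4 of 7 were above equality, with a median log2 ratio of 0.17. Cacna1c, the L-type calcium channel pore, had 25 UMIs in each library, a ratio of 0.632 (0.348 to 1.15). Of 4 RGS genes beside Rgs5, 3 were below equality, and Rgs2 was the lowest at 0.575 (0.384 to 0.858), with 0.312 in Xist-only cells.

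Of the transcription factors of the mesenchyme 18 of 29 were below equality, against 55.4% of all genes, with a median log2 ratio of -0.12. Tbx15 was past 2-fold, at 33 and 23 UMIs, 0.440 (0.247 to 0.773), and at 0.734 with 3 or more mural genes. Six2 was at 0.523 (0.357 to 0.765), Alx1, a factor of cranial neural crest, at 0.560 (0.354 to 0.882, and 0.926 in Xist-only cells), and Foxc2, a forkhead factor of periocular mesenchyme and vessels, at 0.601 (0.414 to 0.873). Twist1, at 199 and 143 CPM, and Prrx1, at 218 and 159 CPM, were at 0.720 and 0.729. In the other direction Lmx1b was at 1.55 (0.903 to 2.75) and Epas1 at 1.498 (1.08 to 2.10). Foxc1 was at 1.07, Ebf1 at 1.04, Tbx18 at 0.928 and Foxf2 at 0.829, all with intervals that include 1. Foxf1 and Hand2, factors of trunk mesenchyme, had 0 UMIs.

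Of the 8 mesenchyme markers 4 were above and 4 below equality, with a median log2 ratio of 0.09. That median ran from -0.17 with 3 or more mural genes to 1.08 with 5 or more, the cells in which Acta2 was at 2.29. There 7 of the 8 had 50 UMIs, with Col1a1 at 2.22, Dcn at 5.93 and Prrx1 at 0.922, and Pdgfra, under that minimum, was at 1.02. Among those above, Col1a1 was at 1723 and 2447 CPM, 1.42-fold (1.348 to 1.495), and Dcn, decorin, at 404 and 870 CPM, 2.15-fold. Dcn was at 1.09 in the Xist-only cells and at 1.00 with 3 or more mural genes. The mutant cells with all 6 mural genes held 550 Dcn and 867 Col1a1 UMIs, against 7 and 36 in their control counterparts. The 2 richest mutant pericytes, whatever their number of mural genes, held 1426 and 1329 of the 14332 mesenchyme marker UMIs of the mutant class. In mesenchyme-like cells, a class set by such genes, the markers summed to 13764 CPM (control) and 18650 CPM (mutant), beside 5274 and 7384 CPM in pericytes.

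Transcripts of cell cycle genes were seen in many pericytes. At least 2 of 6 cell cycle genes had a UMI in 33 of 62 control pericytes (53.2%, 40.1 to 66.0%) and in 49 of 92 mutant ones (53.3%, 42.6 to 63.7%). When every cell was thinned to 2000 UMIs the shares were 35.5% (23.7 to 48.7%) and 28.3% (19.4 to 38.6%). Thinned mesenchyme-like cells were at 13.8% and 14.5%, endothelial-like cells at 28.8% and 34.7%, and ganglion cell-like cells, which have left the cycle, at 1.24% and 0.823%. Free RNA enters such calls too, and thinned erythroid-like cells gave 3.42% and 4.42%. Pericytes thus lay near endothelial-like cells in both libraries, with no difference between genotypes beyond counting error.

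Of 14 cell cycle genes the median log2 ratio was -0.04. Ccnb1, cyclin B1, was past 2-fold at 46 and 181 UMIs, 2.49-fold (1.79 to 3.52), 3.03-fold in Xist-only cells and at 1.06 with 3 or more mural genes. Cdkn1c, an inhibitor of the cycle, was at 1732 and 1418 CPM, 0.819 (0.773 to 0.867), while Mki67 was at 184 and 174 CPM and Top2a at 303 and 302 CPM. Dissociation stress genes had a median of 0.06 over 8 genes, and Junb, with 15 and 81 UMIs, was 3.41-fold higher (1.95 to 6.38), in 4 and 20 cells, and 6.15-fold higher in Xist-only cells. Hypoxia and glycolysis genes had a median of -0.02 over 11 genes, with Ldha at 0.980 and Gapdh at 0.953. Among 7 p53 target genes, Plk2 was at 0.528 (0.375 to 0.742), Btg2 at 1.87 (1.15 to 3.14) and Bax at 0.962.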

How the data were processed

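Eye cups were dissociated with papain and libraries were made with 10x 3′ chemistry. The authors deposited count matrices (UMI counts per gene and barcode, 31053 genes), aligned to mm10; their processing notes name Cell Ranger 7.1.0 and Seurat 4.1.1, while the matrix headers give software version 3.1.0. The study removed cells with over 2000 counts as doublets, the opposite of the filter used here, and its cell labels were not used here. Counts were summed over pericytes per library and scaled to CPM. No test was run: each genotype is 1 library of 3 pooled eye cups, and called means a fixed fold at the UMI minimum, whatever the interval. Ratios carry exact conditional binomial intervals, shares Clopper-Pearson intervals, and ratios of cell counts an exact conditional interval that holds the counting error of both cell types, which is wider than the planned one with the second count fixed. Intervals cover counting error only. A level at or under 3 UMIs in both libraries got no reading of direction. Doublets were called with Scrublet (scanpy 1.11.5, numpy 2.4.6, scipy 1.17.1) and kept unless stated. Comparison classes were set by marker genes with a UMI, and cells in 2 or more classes (265 and 349) were left out. Ratios and intervals were tested on simulated data. Named genes were the 6 rule genes, the 20 most enriched, the 8 furthest above and the 8 furthest below 1 by the near interval bound, and list genes with the most UMIs or past 2-fold. The members, rule and gene lists were chosen with earlier results of these data known. Coordinates are from GENCODE M21 (GRCm38). Alternatives covered the rule, depth, mitochondrial share, doublets, sex, scaling, UMI minimum and fold; leaving out pericytes rich in other markers was added after seeing the data. Other ages of the study were not analysed here. Some genes of the lists are not reported here.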

Additional observations from a re-analysis of the deposited data

Results flagged for a closer look

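Y-linked transcripts, which belong to none of the comparisons, were seen in 60.9% of the mutant pericytes and in 0 of the 62 control pericytes. In the mutant library 51.3% of mesenchyme-like cells had such a UMI and in the control library 1 of 2868 did, so the control pool was nearly free of Y-bearing cells while the mutant pool held both kinds.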

How the results depend on the processing

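With 3 or more mural genes the ratio of pericyte shares was 0.848 and that per endothelial-like cell 1.09, and under the other choices these ran from 1.15 to 1.61 and from 1.58 to 2.13. The 98 genes higher past 2-fold became 64 without Scrublet doublets, 50 without cells over 20000 UMIs, 26 among Xist-only cells and 61 without pericytes rich in other markers. The 48 lower genes became 94 among Xist-only cells and 77 with a mean of CPM per cell. Counts of higher and lower genes were 315 and 176 at a minimum of 20 UMIs, 15 and 7 at 200, 875 and 521 with none, and 343 and 331 at 1.5-fold. The 84 enriched genes became 50 among Xist-only cells and 49 against mesenchyme-like cells alone. Of the 14 lists that are not cell type markers, 1 median, against 0 otherwise, reached 1.5-fold without cells over 20000 UMIs. Medians of all lists had the other sign in 49 of 316 recalculations, over 15 of 22 lists, 5 of them for lists whose interval left out 0: contractile genes to -0.0022 at 3 or more mural genes and to -0.010 among Xist-only cells, p53 target genes to 0.10 without cells over 20000 UMIs, and erythroid markers to 2.99 at a mitochondrial share up to 5% and to 0.32 without cells rich in other markers. Beyond what fewer cells or genes give by construction, the cause was not tested. The ratios of named genes moved beyond their intervals in 36 of 229 recalculations and their enrichments in 145 of 338. No paired analysis was possible because each genotype had 1 library and the labels give no shared replicate numbers. Depth limits rare genes: a gene with a few UMIs over 62 or 92 cells allows no statement on direction.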
